A study of Homo sapiens with 36 samples.

Results

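The regions described here are all those on human chromosome 8 in 7 deposited ChIP-seq count tables of SUM-229PE, an established triple-negative breast cancer cell line grown from a pleural effusion. Of 434639 regions in the 7 tables together, 25194 lay on chromosome 8, of which 5649 were on the short (p) arm, below 45 Mb, and 19545 on the long (q) arm. The regions were taken by chromosome name and ordered by start position in the hg19 build. The chromosome was selected on measured values of the same tables, namely the POS over NEG, POSR over POS and trametinib changes of H3K27ac and the JUNB changes at sites outside acetylated regions. The changes in those comparisons are therefore given as descriptions. Regions of different tables overlap, so 25194 is a number of table entries and not of separate places in the genome.

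The cells had been sorted by EpCAM and CD49f, surface proteins of epithelial cells, into a POS population carrying both and a NEG population carrying neither. In the acute arm, cells received 30 nM trametinib, an inhibitor of the kinase MEK, for 24 hours (3 POS and 2 NEG libraries) or DMSO (3 POS and 2 NEG libraries). In the chronic arm, libraries were made at day 14 of 10 nM trametinib (2 POS and 2 NEG) and at day 0 (2 POS and 2 NEG). The deposited names of the chronic comparisons give day 0 as a DMSO control. POSR1 and POSR2 had 2 libraries each and were set against the POS DMSO libraries. What POSR1 and POSR2 stand for is not explained in the labels. All of these 22 libraries measured H3K27ac, acetylation of histone H3 at lysine 27, and 4 more measured JUNB in DMSO-treated cells (2 POS and 2 NEG). The labels list 10 further samples as inputs, for which the tables used here hold no count columns, so no read count per DNA copy was available. Everything comes from 1 cell line at low passage, and nothing in the labels says whether replicates came from separate sorts or cultures.

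H3K27ac marks active enhancers and promoters. JUNB is a subunit of AP-1, a transcription factor dimer that binds enhancers downstream of the MEK and ERK kinases. ChIP-seq reads are drawn from the DNA that is present, so a region with more copies per cell gives more reads at the same density of mark or factor. In breast cancers the long arm of chromosome 8, which carries the MYC oncogene and its neighbour PVT1, is often gained, and parts of the short arm are often lost. Without input counts, more DNA copies, a larger share of cells carrying a mark and more mark per copy cannot be told apart in these libraries. No annotation of the hg19 build was at hand, so no region is tied to a gene, and genes are named only as general background to a wide stretch of the chromosome. The sorting markers were for the same reason not checked.

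Library totals over the counted regions ran from 1861227 to 9212006 reads for H3K27ac and from 4884516 to 8947351 for JUNB. Chromosome 8 took 148199 to 601344 of them per H3K27ac library and 363592 to 735932 per JUNB library. The median count of a chromosome 8 region was 42 to 116 for H3K27ac and 19 to 39 for JUNB. Replicates correlated at 0.923 to 0.981 on log2 counts (a correlation over regions of 1 genome), and every pair differed by more than counting noise, with a chi-square of 1.10 to 4.80 per degree of freedom. The highest value belonged to POS DMSO libraries 1 and 2. All levels below are CPM, that is counts divided by the TMM-scaled library total and brought to a common total, and all regions of 1 table have the same width.

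The number of chromosome 8 regions differed between the tables, most of all on the long arm. The POS acute table held 696 short-arm and 1691 long-arm regions, which was 4.73% of its 50424 regions. The NEG acute table held 604 and 3808, which was 8.10% of 54454. The table for POS and NEG in DMSO held 752 and 2978 (6.54% of 57075), and the table with POSR held 746 and 1813 (4.78% of 53549). The chronic POS table held 630 and 1599 (5.03% of 44343), against 402 and 1208 in the chronic NEG table (5.70% of 28239). The JUNB table held 1819 and 6448 (5.64% of 146555).

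The excess of long-arm regions in the NEG acute table was uneven. Between 110 and 115 Mb, a stretch that holds the large gene CSMD3, the POS acute table had 46 regions and the NEG acute table had 475. Between 75 and 80 Mb, around the transcription factor gene ZFHX4, the POS acute table had 47 regions and the NEG acute table had 375. At 110 to 115 Mb the chronic POS table had 38 of its 44343 regions and the chronic NEG table had 43 of its 28239. At 75 to 80 Mb the chronic POS table had 52 and the chronic NEG table had 91. The number of regions called depends on the depth and enrichment of the libraries that went into the calling, and its part in these differences was not tested.

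**Figure D1:**
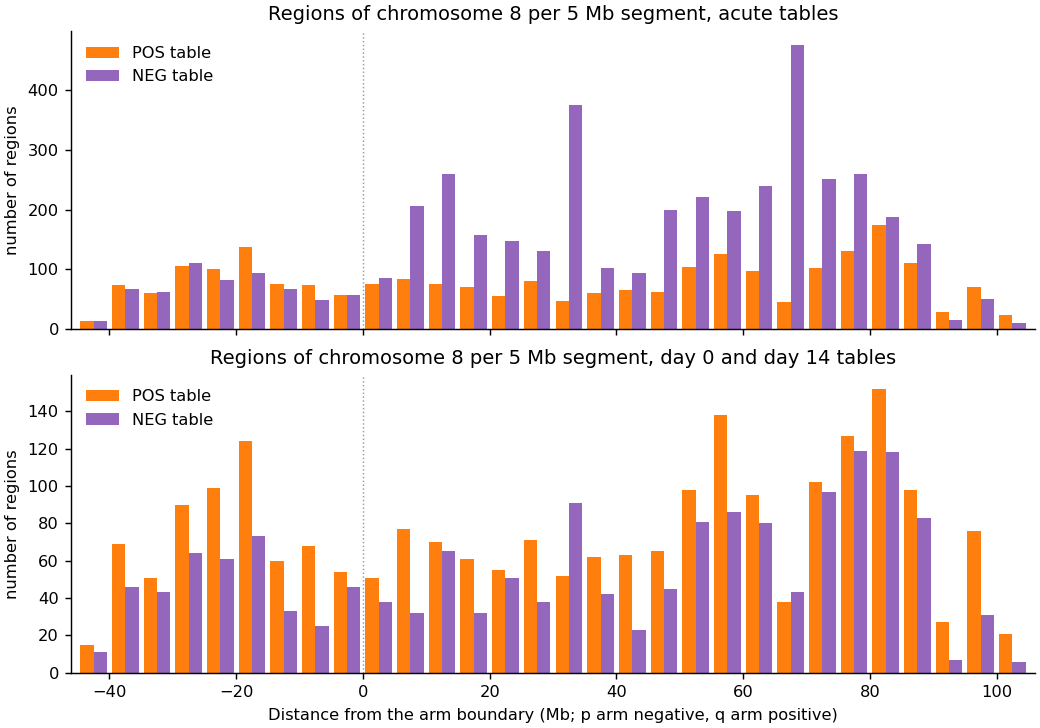
Regions listed per 5 Mb segment of chromosome 8 in the H3K27ac tables; the x axis is the distance from the arm boundary in Mb (p arm negative, q arm positive) and the y axis the number of regions. The NEG acute table stands far above the POS acute table in some long-arm segments, with 47 regions in the POS acute table against 375 in the NEG acute table at 75 to 80 Mb, and 46 against 475 at 110 to 115 Mb.

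In DMSO, H3K27ac on the long arm was lower in POS than in NEG cells over most of its length, while the short arm had a median difference of 0. The median log2 fold change, POS over NEG, was -0.89 over the 2978 long-arm regions and 0.00 over the 752 short-arm regions, against -0.04 over all 57023 regions tested. For the whole chromosome it was -0.75, the lowest of 23 chromosomes. The median long-arm region had 5.26, 8.66 and 6.999 CPM in the 3 POS libraries, against 11.7 and 11.7 CPM in the 2 NEG libraries. The groups did not overlap on the long arm, and the POS libraries spread more than the NEG libraries. The median short-arm region had 8.93, 8.77 and 8.59 CPM in POS, against 8.005 and 7.98 CPM in NEG. The long arm took 5.72%, 6.23% and 5.95% of all reads in regions in POS, against 7.60% and 7.50% in NEG.

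By edgeR's quasi-likelihood test (Benjamini-Hochberg adjusted p under 0.05 over all regions of the table), 1005 chromosome 8 regions were higher and 2013 lower in POS, out of 3730. The same test called 38.6% of all regions higher and 38.0% lower, 76.5% in all. On the long arm 715 were higher and 1730 lower, which is 24.0% and 58.1%. On the short arm 290 were higher and 283 lower. In the authors' deposited table, 2190 of the 3730 had an adjusted p under 0.05, 779 higher and 1411 lower in POS. The share over all regions is not given here for the authors' values. Their counts therefore do not show whether chromosome 8 stands out.

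The long-arm medians were below those of all regions at every level of signal. When all regions of the table were ranked by mean level and split into equal groups, the weakest long-arm regions had a median log2 fold change of -1.12, the middle group -1.07 and the strongest -0.10. The same groups had -0.62, 0.02 and 0.38 over all regions, and -0.66, 0.47 and 0.09 on the short arm. The strongest long-arm regions stood at 0.02, -0.17 and -0.09 in POS libraries 1, 2 and 3 relative to the NEG mean.

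2 measured features moved with this result. The 3 POS libraries stood at -1.24, -0.50 and -0.79 on the long arm relative to the NEG mean, and the weakest regions of the other chromosomes stood at -0.93, -0.16 and -0.50 in the same libraries, in the same order. Of the long-arm regions 69.5% carried the name of a NEG library in the table, against 49.3% on the short arm and 50.3% on the other chromosomes. The part of either in the long-arm difference was not tested. With each replicate left out in turn the long-arm median lay between -1.08 and -0.69, and the short-arm median between -0.06 and 0.07.

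Along the chromosome, 24 of 30 segments of 5 Mb had a median below 0. The lowest was 75 to 80 Mb, at -1.50, where 7 regions were called higher and 192 lower of 219. Its median region had 2.03, 4.80 and 3.50 CPM in POS, against 11.03 and 10.99 CPM in NEG. The 110 to 115 Mb segment had -1.35, with 14 regions higher and 247 lower of 293. Its median region had 2.41, 5.84 and 4.14 CPM in POS, against 9.96 and 9.04 CPM in NEG. In both segments every POS library lay below both NEG libraries. Of the regions at 75 to 80 Mb 90.9% were named for NEG, and of those at 110 to 115 Mb 92.2%. The segment from 55 to 60 Mb, which holds the kinase gene LYN and the zinc finger gene PLAG1, had -1.24, with 25 higher and 125 lower of 176. Further segments at or below a median of -1 were 115 to 120 Mb (-1.22), 95 to 100 Mb (-1.05) and 120 to 125 Mb (-1.05).

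The strongest region of a low segment did not always share its direction. In the 75 to 80 Mb segment the strongest region, chr8:76235823-76236824, had 206, 154 and 178 CPM in POS, against 189 and 196 CPM in NEG (log2 fold change -0.10 ± 0.23, SE). In the 55 to 60 Mb segment chr8:59370065-59371066 had 101, 76.8 and 94.2 CPM in POS, against 87.5 and 88.5 CPM in NEG (0.05 ± 0.20). The groups overlapped in both of these regions. In the 110 to 115 Mb segment chr8:110304059-110305060 was lower in POS, with 88.3, 71.4 and 82.4 CPM in POS, against 172 and 168 CPM in NEG (-1.07 ± 0.21).

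One long-arm segment ran strongly the other way. At 135 to 140 Mb, which holds the RNA-binding protein gene KHDRBS3 and the collagen gene COL22A1, the median was 1.80, with 18 regions called higher and 4 lower of 27. Its median region had 9.50, 7.72 and 10.0 CPM in POS, against 3.74 and 2.48 CPM in NEG. Its strongest region, chr8:135790240-135791241, had 42.8, 33.8 and 38.2 CPM in POS, against 3.91 and 3.19 CPM in NEG (3.43 ± 0.23). On the short arm the highest segments were 5 to 10 Mb (0.51) and 25 to 30 Mb (0.48).

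The segment from 125 to 130 Mb, which holds MYC and PVT1, had the strongest median region of the chromosome and stood near 0. Its median region had 25.3, 30.2 and 28.7 CPM in POS, against 22.8 and 22.7 CPM in NEG. The median log2 fold change was -0.09, and 81 regions were called higher and 89 lower of 200. The regions in it were named for POS and NEG equally, 50.0% each.

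**Figure D2:**
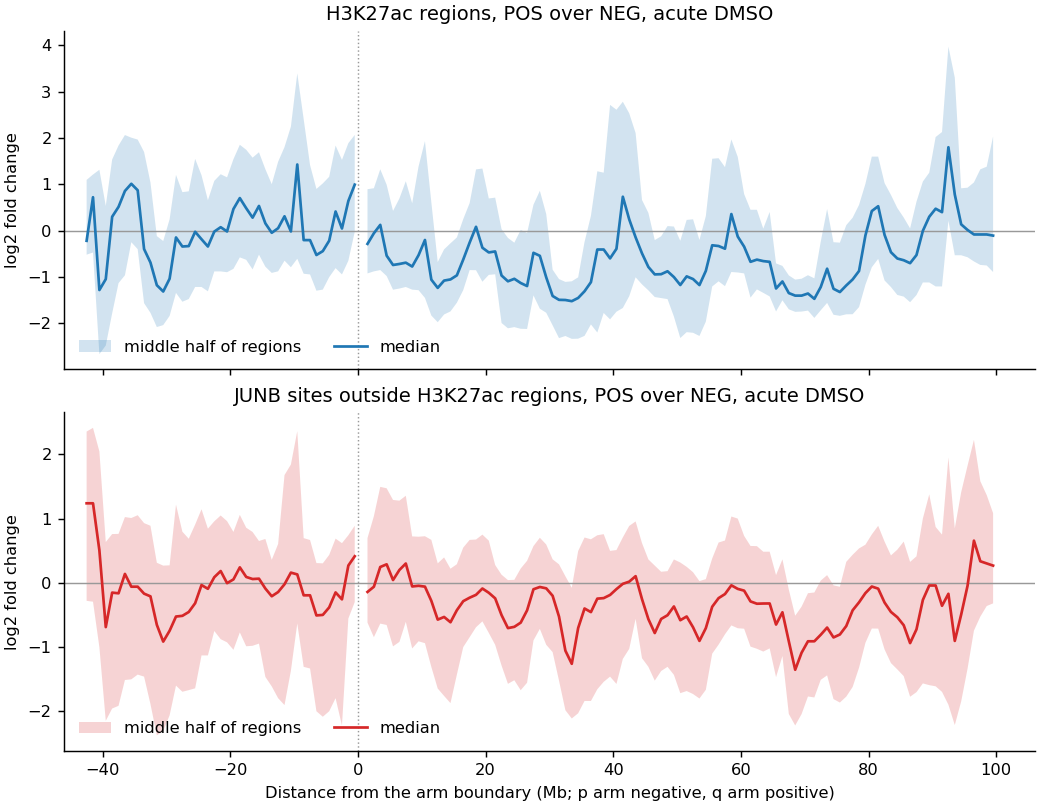
Median log2 fold change, POS over NEG in DMSO, of H3K27ac regions and of JUNB sites outside H3K27ac regions in 5 Mb windows sliding by 1 Mb; the x axis is the distance from the arm boundary in Mb (p arm negative, q arm positive). Both lines lie below 0 over most of the q arm, with H3K27ac at -1.50 and outside JUNB sites at -1.05 in the segment from 75 to 80 Mb.

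Single regions changed far more than their segments. The largest decrease on the long arm among the stronger regions was at chr8:96572328-96573329, with 0.380, 3.76 and 1.59 CPM in POS, against 144 and 155 CPM in NEG (log2 fold change -6.47 ± 0.31, SE). All 9 other regions within 50 kb of it were also called lower in POS. At chr8:69537569-69538570 POS had 1.39, 3.13 and 1.75 CPM, against 107 and 110 CPM in NEG (-5.76 ± 0.25). At chr8:57472033-57473034 POS had 0.380, 2.09 and 1.59 CPM, against 79.7 and 73.2 CPM in NEG (-5.94 ± 0.26), and JUNB differed there by -4.78 ± 0.42. In these 3 places every POS library lay far below both NEG libraries.

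Regions higher in POS were found on the long arm too. At chr8:81811419-81812420 POS had 178, 130 and 160 CPM, against 4.09 and 4.26 CPM in NEG (5.22 ± 0.30). At chr8:135905073-135906074 POS had 39.5, 25.9 and 35.5 CPM, against 0.889 and 0.355 CPM in NEG, where only 7 reads were counted in all (5.73 ± 0.34). On the short arm, chr8:10570766-10571767 had 58.6, 52.4 and 49.2 CPM in POS, against 0.712 and 1.60 CPM in NEG (5.51 ± 0.30), and all 5 other regions within 50 kb were called higher too. The short arm also held large decreases, at chr8:6518061-6519062 (-5.51 ± 0.26) and chr8:40862520-40863521 (-5.08 ± 0.22).

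JUNB binding in the same DMSO condition was also lower in POS on the long arm, by less. Over the 8098 chromosome 8 sites tested, of 8267 listed, the median log2 fold change was -0.30, the 4th lowest of 23 chromosomes. It was -0.37 on the long arm and -0.10 on the short arm. The edgeR test called 1965 sites higher and 3056 lower in POS, where over all sites it called 28.5% higher and 29.4% lower, 57.9% in all. The lowest segments were again 75 to 80 Mb (-1.34) and 110 to 115 Mb (-1.06), followed by 55 to 60 Mb and 115 to 120 Mb (-0.87 each). Their strongest sites did not always share this direction. The strongest site differed by 0.18 ± 0.23 (SE) at 75 to 80 Mb and by 2.70 ± 0.25 at 55 to 60 Mb. At 110 to 115 Mb it differed by -1.48 ± 0.23. Of long-arm sites 53.8% were named for NEG, against 47.9% on the short arm and 46.6% on the other chromosomes.

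JUNB sites that lay outside acetylated regions were examined apart, since their reads depend less on H3K27ac. A site counted as outside where less than 50% of it lay in any region of the H3K27ac tables, which held for 4042 tested sites. Their median log2 fold change was -0.35 over 3241 long-arm sites and -0.11 over 801 short-arm sites, against -0.08 over all 71233 outside sites. Inside acetylated regions it was -0.39 on the long arm, -0.08 on the short arm and 0.07 over all sites. The median outside site of the long arm had 3.04 and 3.26 CPM in POS, against 4.15 and 4.03 CPM in NEG. The groups did not overlap.

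By segment, the outside sites were lowest at 75 to 80 Mb, at -1.05 over 112 sites. The median site there had 1.99 and 2.11 CPM in POS, against 3.80 and 3.94 CPM in NEG. At 110 to 115 Mb the median was -0.91 over 107 sites, and at 115 to 120 Mb and 130 to 135 Mb it was -0.81 and -0.72. The outside sites were highest at 0 to 5 Mb, with 1.24 over 27 sites, where H3K27ac stood at -0.22, and were at 0.34 at 140 to 145 Mb. At 135 to 140 Mb, the segment highest for H3K27ac at 1.80, the outside sites stood at -0.17 over 41 sites, with quartiles of -1.90 and 1.95. The 43 sites inside acetylated regions stood at 1.07 there. All JUNB sites of that segment together had a median of 0.51, the second highest of the chromosome. Over 30 segments, the outside JUNB medians and the H3K27ac medians correlated at r = 0.503 (Spearman's rho 0.692), where the points share the cell populations, the condition and any difference in DNA copies. Other chromosomes also moved away from 0 at their outside sites, with 0.71 on chromosome 13 and -0.81 on chromosome 19.

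Outside sites are no clean measure of copy number, because JUNB binding itself can differ at them. Sites at least 5 kb from any H3K27ac region had a long-arm median of -0.23. Chromosome 8 sites below the median level of all outside sites had -0.26 on the long arm and -0.02 on the short arm. The medians of the same subsets over all chromosomes are not given here. The stretch from 75 to 80 Mb thus had a low median in 2 assays and at sites outside acetylated regions. Whether it has fewer copies in POS was not tested.

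Large changes at single JUNB sites included chr8:120598247-120598448, with 0.819 and 0.384 CPM in POS, against 70.8 and 72.4 CPM in NEG (log2 fold change -6.74 ± 0.37, SE). At chr8:40500873-40501074 the fold change was -6.62 ± 0.39, and the H3K27ac region at the same place changed by -3.65 ± 0.34. Within the H3K27ac region at 69537569, the JUNB site chr8:69537747-69537948 had 0.234 and 0.192 CPM in POS, which is 3 reads in all, against 26.0 and 30.0 CPM in NEG. JUNB was higher in POS at chr8:49777569-49777770, with 38.0 and 35.9 CPM in POS, against 0.712 and 0.350 CPM in NEG (5.99 ± 0.38). At chr8:28488824-28489025 JUNB was higher by 5.47 ± 0.39 and the H3K27ac region there by 3.19 ± 0.29.

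POS and NEG were also set side by side in 13 H3K27ac libraries that had no part in the DMSO comparison. These were the acute trametinib, day 0 and day 14 libraries of both populations. Their trametinib changes were among the values that selected the chromosome, and the acute difference between the populations is the DMSO difference plus those changes. The values are therefore a description, with no p. The difference at day 0 is not part of such a contrast, but 2 libraries against 2 cannot pass a threshold of 0.05 in an exact test. POS and NEG were counted over different tables in these arms, so only regions listed in both tables, with 50% reciprocal overlap, were used: 980 in the acute pair of tables (277 short-arm and 703 long-arm) and 845 in the chronic pair (245 and 600). Values are differences, POS minus NEG, of the libraries' median log2 deviation.

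Averaged over the 3 conditions, chromosome 8 stood at -0.20 in POS relative to NEG, the third lowest of 23 chromosomes. The long arm stood at -0.24, made up of -0.05 under acute trametinib, -0.25 at day 0 and -0.40 at day 14. The acute value covers 703 matched regions, while the DMSO median of -0.89 covers 2978 regions. These values cannot be set against each other as a change under the drug. The short arm stood at -0.15, made up of -0.08, -0.01 and -0.37 in the same conditions. Without day 14 the short-arm difference was -0.04 and the long-arm difference -0.15.

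The segment at 75 to 80 Mb stood at -1.14 on average and was the third lowest of 511 segments of all chromosomes. Under acute trametinib its 23 matched regions stood at -0.48, -0.32 and -0.42 in POS, against 0.31 and 0.42 in NEG, on a scale where 0 is midway between the groups. At day 0 its 22 matched regions stood at -0.60 and -0.45 in POS, against 0.43 and 0.63 in NEG. At day 14 they stood at -0.74 and -0.84 in POS, against 0.75 and 0.88 in NEG. Within each condition every POS library lay below every NEG library. The midpoint is set anew in each condition, so libraries of different conditions share no scale.

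The segment at 55 to 60 Mb differed by -0.36 under acute trametinib, -0.76 at day 0 and -1.01 at day 14, on average -0.71. At 110 to 115 Mb the average was -0.85, made up of -0.18, -0.62 and -1.76. POS stood there at -0.16, 0.13 and -0.29 under acute trametinib, against 0.02 and 0.12 in NEG, so the groups overlapped in that condition, and 11 regions were behind the chronic values. At 60 to 65 Mb POS was higher, by 0.26 on average, and at 50 to 55 Mb by 0.31. The segment around MYC, 125 to 130 Mb, differed by -0.10.

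Other segments with a low average were 15 to 20 Mb at -0.52, 115 to 120 Mb at -0.49, 130 to 135 Mb at -0.43 and 120 to 125 Mb at -0.40. The small positive difference at 100 to 105 Mb, 0.12, turned to -0.13 with total counts as the scaling.

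**Figure D3:**
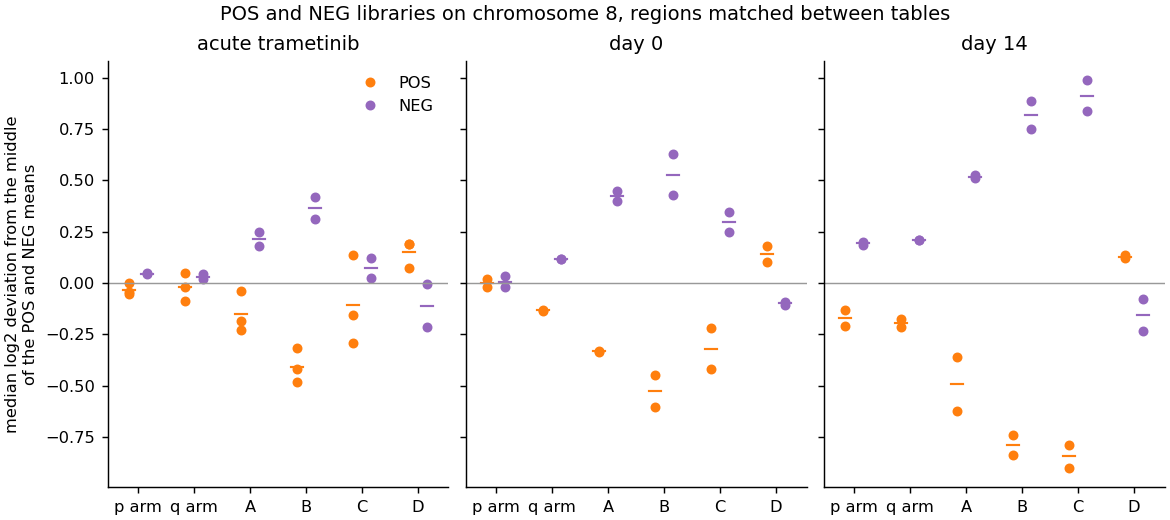
POS and NEG libraries of the acute trametinib, day 0 and day 14 conditions, each as its median log2 deviation from the midpoint of the groups over matched regions, for the p arm, the q arm and 4 segments (A 55 to 60, B 75 to 80, C 110 to 115 and D 60 to 65 Mb). In segment B the POS libraries lie at -0.32 or lower and the NEG libraries at 0.31 or higher in all 3 conditions, while in segment C the acute groups overlap.

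POSR1 and POSR2 were each set against the same 3 POS DMSO libraries, so the 2 comparisons are not independent, and they share those libraries with the comparison of POS and NEG. POSR1 had a median of -0.01 on the short arm and -0.14 on the long arm, against -0.04 over all regions. POSR2 had -0.25 on the short arm and 0.02 on the long arm, against 0.00 over all regions. The edgeR test called 611 of 2559 regions higher and 877 lower in POSR1, where it called 26.5% of all regions higher and 29.4% lower, 55.9% in all. In POSR2 it called 668 higher and 828 lower, where over all regions it called 28.2% higher and 29.2% lower, 57.4% in all.

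The arm farther from 0 was the long arm in POSR1 and the short arm in POSR2. The median long-arm region had 13.3 and 12.8 CPM in POSR1, against 13.9, 15.1 and 14.5 CPM in POS. It had 14.1 and 14.1 CPM in POSR2, within the POS range. The median short-arm region had 7.06 and 6.96 CPM in POSR2, against 9.10, 8.63 and 8.47 CPM in POS, and the groups did not overlap. In POSR1 it had 8.005 and 7.999 CPM, also below the 3 POS libraries, while the median deviation of its regions was 0.01 and 0.02. The median region of all chromosomes was also lower in POSR1. It averaged 8.65 CPM in POSR1, 9.08 CPM in POSR2 and 9.41 CPM in POS. The short arm took 0.897% and 0.894% of the reads in POSR2, against 1.09%, 1.048% and 1.06% in POS.

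By segment, POSR1 was highest at 0 to 5 Mb (0.59 over 21 regions) and at 110 to 115 Mb (0.50 over 68). The median region of the second had 11.3 and 11.3 CPM in POSR1, against 7.59, 9.52 and 8.93 CPM in POS, and 36 regions were called higher and 10 lower. POSR2 stood at 0.08 in that segment, with 9.57 and 8.34 CPM, inside the POS range. POSR1 was lowest at 135 to 140 Mb (-0.57), 115 to 120 Mb (-0.48) and 60 to 65 Mb (-0.45). POSR2 was lowest at 15 to 20 Mb (-0.42) and 20 to 25 Mb (-0.40), and highest at 145 to 150 Mb (0.59) and 0 to 5 Mb (0.50). At 15 to 20 Mb its median region had 6.10 and 6.44 CPM in POSR2, against 8.68, 9.03 and 8.93 CPM in POS.

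**Figure D4:**
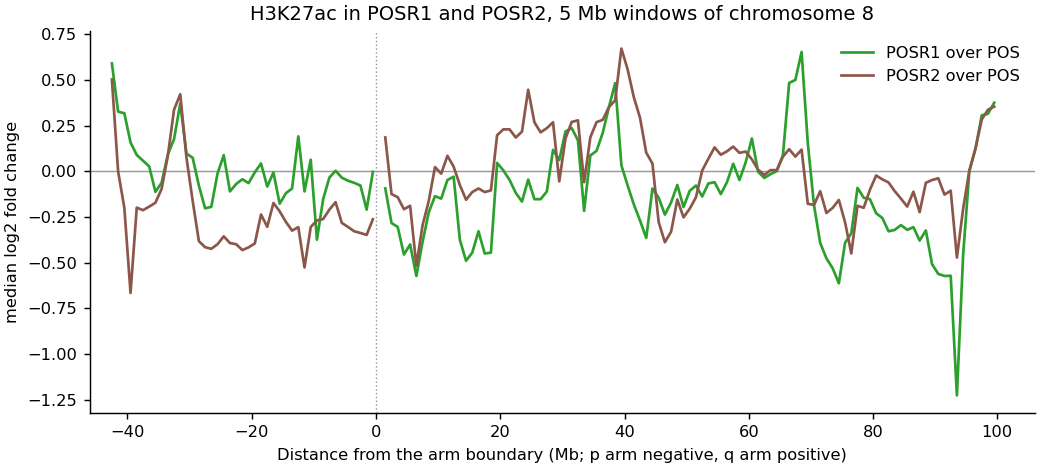
Median log2 fold change of H3K27ac along chromosome 8 in 5 Mb windows sliding by 1 Mb, POSR1 over POS and POSR2 over POS; the x axis is the distance from the arm boundary in Mb (p arm negative, q arm positive). POSR2 lies below 0 on much of the p arm, with -0.42 at 15 to 20 Mb, and POSR1 stands at 0.50 at 110 to 115 Mb and at -0.48 in the next segment.

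The region with the largest increase was the same in both. At chr8:83908330-83909331 POSR1 had 38.5 and 41.4 CPM and POSR2 had 39.8 and 43.0 CPM, against 2.17, 1.96 and 2.57 CPM in POS (log2 fold changes 4.14 ± 0.20 and 4.19 ± 0.20, SE). No other region lay within 50 kb. At chr8:30289951-30290952 POSR1 had 35.7 and 35.1 CPM, against 5.42, 6.87 and 4.84 CPM in POS (2.65 ± 0.16), and POSR2 was higher by 1.42 ± 0.18.

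The decreases named here were also shared in direction and unequal in size. They are examples named for large changes and not a tally, and both differences use the same POS DMSO libraries. At chr8:109955646-109956647 POSR1 had 11.5 and 9.79 CPM, against 104, 75.3 and 87.9 CPM in POS (-3.07 ± 0.20), and POSR2 differed by -1.13 ± 0.17. At chr8:120126670-120127671 POSR2 had 2.63 and 1.84 CPM, against 27.8, 27.5 and 29.4 CPM in POS (-3.64 ± 0.20), and POSR1 differed by -2.48 ± 0.17. At chr8:53058703-53059704 POSR2 differed by -3.34 ± 0.19 and POSR1 by -1.61 ± 0.16. On the short arm, chr8:42112333-42113334 differed by -2.86 ± 0.20 in POSR2 and by -1.22 ± 0.16 in POSR1, and all 6 other regions within 50 kb were called lower in POSR2.

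Acute trametinib moved chromosome 8 little as a whole. In POS cells the median log2 fold change over DMSO was -0.15 on the short arm and -0.05 on the long arm. The median short-arm region had 7.91, 7.86 and 7.91 CPM under trametinib, against 10.5, 9.75 and 9.97 CPM in DMSO, and the groups did not overlap. In NEG cells the medians were -0.09 on the short arm and 0.03 on the long arm. The edgeR test called 583 of 2385 regions higher and 751 lower in POS, where over all regions it called 26.7% higher and 26.0% lower, 52.7% in all. In NEG it called 594 of 4412 higher and 709 lower, where over all regions it called 17.2% higher and 19.3% lower, 36.5% in all. DESeq2 called 699 chromosome 8 regions in NEG where edgeR called 1303. The authors' deposited table has 443 with an adjusted p under 0.05, 172 higher and 271 lower, and 835 with none given. Shares over all regions are not given here for DESeq2 or the authors' values.

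The segment with the largest acute change in POS was 5 to 10 Mb, at -0.52. Its median region had 7.78, 7.86 and 7.91 CPM under trametinib, against 14.2, 11.2 and 11.1 CPM in DMSO, and 11 regions were called higher and 37 lower of 73. The strongest of them, chr8:8152930-8153931, had 21.1, 20.3 and 22.9 CPM under trametinib, against 76.2, 48.8 and 57.5 CPM in DMSO (-1.51 ± 0.16). In NEG that segment stood at 0.04. Next in POS came 135 to 140 Mb (-0.32) and 90 to 95 Mb (-0.28), and the highest was 70 to 75 Mb (0.22). In NEG the segments ran only from -0.23, at 15 to 20 and 20 to 25 Mb, to 0.22 at 0 to 5 Mb.

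The 2 segments that were lowest in POS relative to NEG had small median changes under acute trametinib, over the regions of the acute tables. For POS these were 47 regions at 75 to 80 Mb and 46 at 110 to 115 Mb. The DMSO comparison of POS and NEG had 219 and 293 regions there. Most regions behind its low medians are therefore not covered by the acute POS values. At 75 to 80 Mb the median change was 0.09 in POS and 0.10 in NEG, and at 110 to 115 Mb it was -0.12 in POS and 0.04 in NEG. The POS libraries of the 75 to 80 Mb segment had 14.6, 14.5 and 14.7 CPM under trametinib, against 11.8, 12.8 and 13.7 CPM in DMSO.

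After 14 days of trametinib chromosome 8 had a median log2 fold change over day 0 of -0.31 in POS cells, the lowest of 23 chromosomes. It was -0.45 on the short arm and -0.22 on the long arm. The median short-arm region had 7.57 and 7.64 CPM at day 14, against 11.2 and 11.4 CPM at day 0. The median long-arm region had 15.1 and 15.1 CPM at day 14, against 17.5 and 19.1 CPM at day 0. The chromosome held 5.74% of the reads in regions at day 14, against 6.77% at day 0. In NEG the medians were -0.10 on the short arm and -0.02 on the long arm. The edgeR test called 762 of 2229 regions higher and 1033 lower in POS, where over all regions it called 39.5% higher and 38.2% lower, 77.8% in all. In NEG it called 401 of 1608 higher and 440 lower, where over all regions it called 24.8% higher and 23.8% lower, 48.6% in all. DESeq2 called 534 in NEG where edgeR called 841, and the authors' deposited table has 356 with an adjusted p under 0.05, 167 higher and 189 lower. For these counts too, shares over all regions are not given here.

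The day 14 segments of POS ranged from -1.06 at 135 to 140 Mb to 0.91 at 145 to 150 Mb, next to each other but for 1 segment. At 135 to 140 Mb the median region had 5.35 and 4.70 CPM at day 14, against 7.14 and 7.18 CPM at day 0. Of its 27 regions 4 were called higher and 16 lower. That segment was the one highest in POS over NEG in DMSO (1.80). It also had the second lowest median under acute trametinib in POS (-0.32) and the lowest in POSR1 (-0.57). The last 2 comparisons share their POS DMSO libraries with the first. The segment's strongest region was higher under acute trametinib (chr8:135069533-135070534, 0.57 ± 0.15) and in POSR1 (chr8:135069539-135070540, 0.52 ± 0.17). At day 14 the strongest region, chr8:135069580-135070581, changed by 0.06 ± 0.14. At 145 to 150 Mb 16 of 21 regions were called higher and 1 lower at day 14.

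Other segments low at day 14 in POS were 110 to 115 Mb and 90 to 95 Mb (-0.93 each) and 5 to 10 and 15 to 20 Mb (-0.85 each). At 110 to 115 Mb the median region had 7.75 and 7.74 CPM at day 14, against 10.98 and 13.8 CPM at day 0. The strongest region there went the other way: chr8:110633010-110634011 had 224 and 231 CPM at day 14, against 102 and 82.9 CPM at day 0 (1.28 ± 0.14). In NEG the lowest segment was 5 to 10 Mb (-0.48) and the highest were 0 to 5 Mb (0.38), 35 to 40 Mb (0.34) and 100 to 105 Mb (0.32). The segment from 35 to 40 Mb, which holds the receptor gene FGFR1, stood at 0.44 in POS and 0.34 in NEG. At 75 to 80 Mb the day 14 median was -0.32 in POS and 0.13 in NEG.

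Among single regions, chr8:141655363-141656364 was lower under trametinib in both populations. In POS it had 1.48, 2.05 and 2.34 CPM under acute trametinib, against 34.4, 25.2 and 29.6 CPM in DMSO (log2 fold change -3.92 ± 0.19, SE). The matching NEG region, chr8:141655398-141656399, had 5.25 and 4.53 CPM under acute trametinib, against 25.6 and 25.5 CPM in DMSO (-2.38 ± 0.20). At day 14 it changed by -3.07 ± 0.26 in POS and by -1.38 ± 0.25 in NEG, and it was lower than POS in POSR1 (-1.28 ± 0.15) and in POSR2 (-2.41 ± 0.17).

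Some of the named regions that were higher in POS than in NEG were lower under trametinib in POS. They are examples named for large changes and not a tally, and the POS DMSO libraries enter both the DMSO and the acute difference. At chr8:101500093-101501094 POS cells had 11.9, 14.7 and 10.6 CPM under acute trametinib, against 173, 126 and 151 CPM in DMSO (-3.61 ± 0.19). This region was 5.13 ± 0.30 higher in POS than in NEG in DMSO, JUNB at it was 5.52 ± 0.31 higher, and the day 14 change was -1.88 ± 0.14. At chr8:10570766-10571767 the acute change in POS was -1.46 ± 0.15 and the day 14 change of the overlapping region -2.84 ± 0.18. At chr8:81811419-81812420 the day 14 change was -1.76 ± 0.14, and at chr8:135905073-135906074 the acute change was -1.38 ± 0.15. At chr8:24075679-24076680 the acute change was -3.32 ± 0.17 in POS and -0.37 ± 0.12 in NEG.

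Some named regions that were higher in NEG than in POS were lower under trametinib in NEG, again as examples, with the NEG DMSO libraries in both the DMSO and the acute difference. At chr8:96572328-96573329 NEG cells had 27.7 and 27.6 CPM under acute trametinib, against 160 and 175 CPM in DMSO (-2.60 ± 0.11), and the day 14 change was -0.98 ± 0.11. At chr8:55249305-55250306, 4.22 ± 0.23 lower in POS than in NEG on the log2 scale, NEG had 17.4 and 15.0 CPM under acute trametinib, against 97.1 and 91.4 CPM in DMSO (-2.54 ± 0.13). Beside the region at 69537569, which changed by -0.70 ± 0.10 acutely in NEG, chr8:69535202-69536203 had 11.6 and 14.9 CPM at day 14 in NEG, against 72.1 and 55.1 CPM at day 0 (-2.27 ± 0.19). At chr8:101635221-101636222 NEG had 9.48 and 17.8 CPM at day 14, against 70.7 and 72.8 CPM at day 0 (-2.37 ± 0.18). The acute change of the overlapping region was -2.26 ± 0.14, and in DMSO it was lower in POS for both H3K27ac (-3.63 ± 0.20) and JUNB (-4.97 ± 0.33).

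At chr8:144501695-144502696 POS had 48.9 and 45.7 CPM at day 14, against 0.535 and 1.496 CPM at day 0, where 8 reads were counted in all (5.68 ± 0.28). At chr8:118852560-118853561 it had 167 and 164 CPM at day 14, against 6.07 and 9.87 CPM at day 0 (4.45 ± 0.18), and the acute change was 1.89 ± 0.15. At chr8:36931164-36932165 the day 14 change was 4.79 ± 0.23 and the acute change 2.29 ± 0.33. At chr8:99228856-99229857 POS had 60.5, 53.0 and 57.1 CPM under acute trametinib, against 9.78, 10.4 and 9.35 CPM in DMSO (2.54 ± 0.16), and the day 14 change was 3.41 ± 0.17. Day 14 losses in POS included chr8:16553374-16554375 (-4.50 ± 0.27) and at chr8:131008303-131009304 (-4.15 ± 0.17).

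In NEG, the largest gains were smaller. A pair of neighbouring regions rose at day 14: chr8:103379029-103380030 had 70.03 and 76.0 CPM at day 14, against 7.95 and 10.0 CPM at day 0 (3.04 ± 0.18), and chr8:103380207-103381208 had 167 and 191 CPM at day 14, against 30.6 and 28.5 CPM at day 0 (2.59 ± 0.12). At chr8:11025366-11026367 the day 14 change was 2.24 ± 0.14. Under acute trametinib chr8:78545417-78546418 had 23.6 and 25.5 CPM, against 4.97 and 5.78 CPM in DMSO (2.19 ± 0.20). At chr8:13103549-13104550 the acute change was 1.64 ± 0.15 in POS and 1.22 ± 0.14 in the matching NEG region, and POSR1 and POSR2 were higher than POS there by 1.31 ± 0.15 and 1.37 ± 0.15.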

How the data were processed

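The authors deposited, for each comparison, a table of read counts per region and library and a table of their own log2 fold changes and p-values; units were read from the file headers and the values. Per the submitters' processing notes, cutadapt 1.12, STAR 2.5.2b, featureCounts, MACS2 and DESeq2 were used with hg19; what each tool did and the remaining versions are not stated there. The deposited counts were tested as they stand with edgeR 4.0.16 (quasi-likelihood test, TMM factors, minimum count 10, prior count 2, Benjamini-Hochberg adjustment over all regions of the table, threshold 0.05). Every chromosome 8 region passed the low-count filter except 2 in the POS acute table, 2 in the chronic NEG table and 169 JUNB sites. Arms and segments of 5 Mb with at least 10 tested regions are summarised by the median fitted log2 fold change, with no test.

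The exact permutation test fixed for the matched regions (within conditions, adjusted over 30 chromosome 8 tests) was run, but its p-values are not reported as results, because its libraries also entered the trametinib changes that selected the chromosome. Adjusting over all chromosomes was added after seeing the data, and the scripts were tested on simulated data. Columns coded GSK were read as the acute trametinib arm, from their table. Named regions were the 3 highest and 3 lowest of each arm by absolute change among called, non-overlapping regions at or above the median level, of which a selection is printed, and the strongest region of named segments. The members and lists were chosen with earlier results of these data known. Replicate p-values measure only the spread between these libraries, which may be technical. Alternatives were other scaling, no filter, DESeq2 1.42.0, a replicate block and leaving out each replicate.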

Additional observations from a re-analysis of the deposited data

Results flagged for a closer look

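In 5 of the named segments every POS library moved one way under trametinib and every NEG library the other way. The difference between the populations was not tested, and the POS and NEG tables hold different regions. Under acute trametinib, 5 to 10 Mb stood at -0.52 in POS and 0.02 in NEG, 30 to 35 Mb at 0.06 (0.0559) in POS and -0.10 in NEG, and 135 to 140 Mb at -0.29 in POS and 0.05 in NEG, each the mean of the libraries' median log2 deviations from their controls. At day 14, 95 to 100 Mb stood at 0.42 in POS and -0.02 in NEG, and 110 to 115 Mb at -0.90 in POS and 0.06 in NEG. These 5 are limited to the segments that were also among the 3 highest or lowest of a comparison. Over all segments, the same held for 4 of 30 under acute trametinib and 7 of 28 at day 14. Among those left out was 75 to 80 Mb at day 14, with a median log2 fold change of -0.32 in POS and 0.13 in NEG.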

How the results depend on the processing

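Of 425 alternative values for single named regions none lost its call or turned its direction. These regions were chosen for large, called changes, so this says little about other results. Of 170 alternative arm medians 29 moved by at least the replicate spread, as did 7 of 12 for outside JUNB sites. Of 85 alternative counts of called regions 83 stayed within 1.5 times. The other 2 came from DESeq2, with 699 regions in the acute NEG comparison (1303 with edgeR) and 534 in the day 14 NEG comparison (841 with edgeR). Shares over all regions are not given here for these alternatives. Scaling by total counts moved the median of all regions to -0.19 (POS over NEG), -0.13 (POSR1) and 0.09 (acute NEG), and gave arm medians of -0.16 (short arm, POS over NEG), -0.10 and -0.23 (short and long arm, POSR1), -0.025 (long arm, POSR2), -0.030 and 0.089 (acute NEG), -0.47 (short arm, day 14 POS) and -0.053 and 0.029 (day 14 NEG). TMM over the other chromosomes gave -0.093 on the long arm in acute POS, and DESeq2 and its size factors gave -0.10 on the short arm in acute NEG. In the matched libraries, 100 to 105 Mb turned to -0.13 under total counts. Causes were not tested.

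JUNB sites at least 5 kb outside H3K27ac regions had a long-arm median of -0.23. Outside sites below the median level had -0.016 and -0.26 on the short and long arm. The matched differences of the chromosome, short arm and long arm were -0.28, -0.19 and -0.33 without acute trametinib. They were -0.22, -0.22 and -0.23 without day 0, and -0.12, -0.042 and -0.15 without day 14. In each of these runs 0 segments passed the exact permutation test. Without acute trametinib the design was too small to pass the threshold. Without day 0 or day 14 a pass was possible, but only with many parts at or near the smallest possible p together. With p-values adjusted over all chromosomes, 15 of 27 segments passed (55.6%), against 59.1% of all 511, and nothing is read from these counts. With single libraries left out, the matched difference lay between -0.21 and -0.19 for the chromosome. It lay between -0.16 and -0.14 for the short arm and between -0.25 and -0.22 for the long arm. Nothing is read from the permutation test in these runs either.

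With single libraries left out, called regions ran from 2489 to 3203 (POS over NEG), 1074 to 1543 (POSR1) and 1126 to 1570 (POSR2). They ran from 1147 to 1386 (acute POS) and 1017 to 1126 (acute NEG). At day 14 they ran from 1535 to 1805 (POS) and 699 to 808 (NEG), and for JUNB from 3983 to 4590. Shares over all regions are not given here for these runs. The counts therefore do not show whether chromosome 8 stands out. Short-arm medians ran from -0.06 to 0.07 (POS over NEG), -0.03 to 0.01 (POSR1), -0.28 to -0.20 (POSR2), -0.19 to -0.15 (acute POS), -0.10 to -0.047 (acute NEG), -0.47 to -0.41 (day 14 POS), -0.10 to -0.033 (day 14 NEG), -0.20 to -0.012 (JUNB) and -0.22 to -0.030 (outside JUNB). Long-arm medians ran from -1.08 to -0.69 (POS over NEG), -0.19 to -0.11 (POSR1), -0.012 to 0.021 (POSR2), -0.07 to -0.03 (acute POS), -0.025 to 0.048 (acute NEG), -0.24 to -0.22 (day 14 POS), -0.055 to -0.0049 (day 14 NEG), -0.40 to -0.25 (JUNB) and -0.42 to -0.21 (outside JUNB).

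Deviations of same-numbered replicates correlated at -0.20 to 0.38 over regions, and in acute POS, with 3 pairs, at 0.12, 0.38 and -0.02. Not every pair was above 0.1 there, so the numbers were not taken to pair the libraries. With the replicate number as a block, 2550 regions were called in POS over NEG, 1182 in POSR1, 1191 in POSR2, 1422 and 1286 in acute POS and NEG, 1770 and 838 at day 14 in POS and NEG, and 5048 JUNB sites. Shares over all regions are not given here for the block either, so these counts do not show whether chromosome 8 stands out. Segments of 2 or 10 Mb moved the highest or lowest segment median in 29 of 32 cases. Without input counts, copy number was not measured.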
